A study of Gossypium hirsutum with 12 samples.

Results

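The transcripts described here are those whose array signal was dim in cotton leaves at 32 °C and at least doubled at 42 °C in both cultivars studied. They were chosen from the measured values: on the scale of log2(signal + 16), the group mean at 42 °C minus that at 32 °C was at least 1 in Sicala 45 and in Sicot 53, all 3 arrays at 42 °C lay above all 3 at 32 °C within each cultivar, and the mean signal over the 6 arrays at 32 °C was below 100. Of 24029 probe sets, 11825 had a mean 32 °C signal below 100. Outside a few groups of probe sets that the rule leaves out by name, 67 of these also had the required change in both cultivars. Of the 67, 39, or 0.162% of all probe sets, were also without overlap of arrays. The change with heat is therefore a description of how the 39 were chosen and carries no test. A signal of this size may come from little transcript or from background, and the deposited table holds no detection calls to separate these.

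The study measured leaves of upland cotton (Gossypium hirsutum), a tetraploid crop, on 12 Affymetrix Cotton arrays in 4 groups of 3. Sicala 45 and Sicot 53 plants, grown in field soil, were first kept for 4 d in a controlled cabinet, with days of 32 °C and nights of 25 °C. One set of each cultivar stayed at 32 °C, and another set of similar physiological age then took its place and received days of 42 °C at 67% relative humidity with nights of 25 °C, all well watered. RNA came from vegetative plants at first square, the stage of the first flower bud, and from the third youngest leaf among those fully expanded. Temperature and cabinet run cannot be told apart in any comparison of 42 with 32 °C. The labels count 3 leaf tissue samples per group without saying whether they came from separate plants, so the p-values below measure only the spread between these samples. In whole-leaf RNA, a change in the number of cells of a type and a change in RNA per cell cannot be told apart. RCA1, Rubisco activase, a leaf enzyme, lay at or above percentile 99.9 of every array. The cotton fibre gene E6 lay at percentiles 71.9 to 86.6, with signals of 413 to 1240. Fb2, also a fibre gene, lay at percentiles 66.9 to 81.5, with signals of 323 to 836. Levels of other fibre genes were not looked at.

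Plants that are heated activate heat shock transcription factors, which bind short repeated elements in promoters and switch on chaperones. Small heat shock proteins, HSP70, HSP90 and HSP101 keep unfolding proteins soluble and help them refold. Many of these transcripts are close to silent in unstressed leaves and abundant within a short time of heating, so heat-raised transcripts that start from a low level are a recognised part of the response in plants generally. The sources used here do not say which of the 39 probe sets, if any, target such genes. Only Ghi.3494.2.A1_at has a gene symbol, LOC107946138, a protein-coding locus with no gene name in the table used, and the other 38 have none listed. The symbol tables cover few probe sets of this array (697 with 1 symbol and 46 with several, 3.09% of the 24029), and the probe sets are therefore called by the names in the deposited table. No sequence is given because none of the files used holds one.

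The 39 probe sets had a median of 29.9 for their mean 32 °C signals and of 145 for their mean 42 °C signals. At 32 °C, 9 of them had a mean under 10, 19 a mean of 10 to 50 and 11 a mean of 50 or more. At 42 °C, 14 stayed under a mean of 100, 20 lay between 100 and 500, and 5 reached 500 or more. The median signal of the 39 on single arrays was 22.1 to 37.3 at 32 °C and 101 to 171 at 42 °C, beside medians of all probe sets of 92.4 to 109 and 86.1 to 114. Between 0 and 5 of the 39 exceeded the array's own median at 32 °C, and 20 to 30 did so at 42 °C. At most 4 reached the top 10% of an array at 42 °C, so most of the 39 had signals in the middle of the range there. Signals of different probe sets also reflect their probes, so these places describe signals and not amounts of transcript. The heat map of levels by array shows this. The rows of GhiAffx.41577.1.S1_s_at, GhiAffx.25696.1.S1_at and Ghi.1479.1.S1_at are bright at 42 °C, with median percentiles there of 96.2, 84.2 and 84.6. GhiAffx.2754.1.A1_at reaches percentile 93.7 on its highest array at 42 °C, but its median percentile there is 54.9. Most other rows move from low to middle levels, and some stay low, such as GraAffx.25453.1.A1_at at a median percentile of 28.5.

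**Figure D1:**
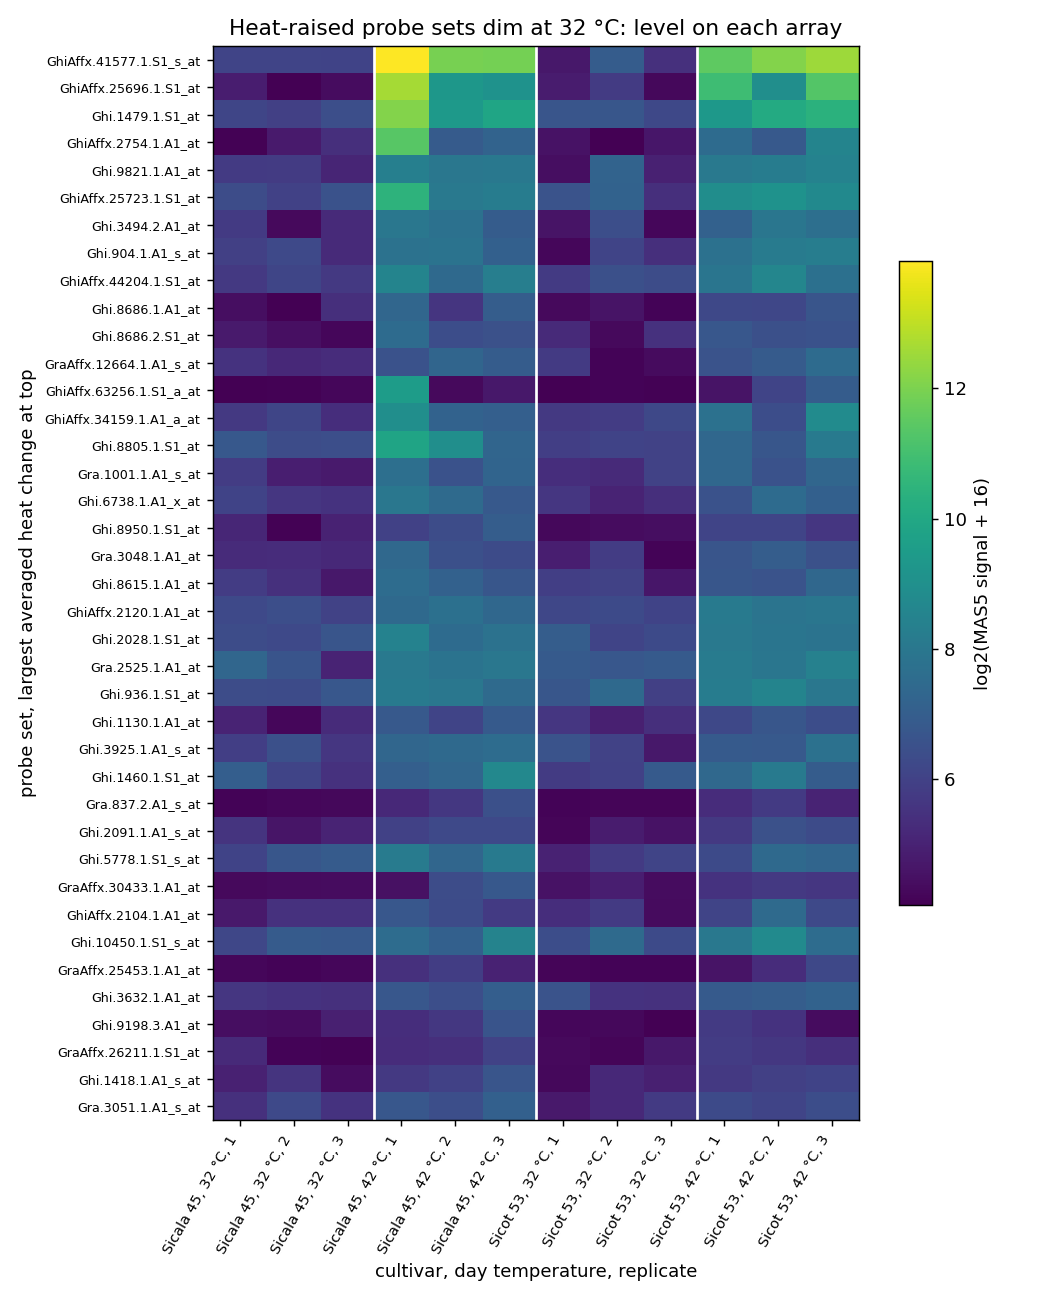
Level of each of the 39 probe sets (rows, largest averaged heat change at top) on each of the 12 arrays (columns, grouped by cultivar and day temperature), as log2(MAS5 signal + 16). The top 4 rows reach the highest single levels at 42 °C, with Sicala 45 at 42 °C replicate 1 the brightest column in them. In row 4, GhiAffx.2754.1.A1_at, the other columns at 42 °C hold signals of only 97.7 to 357.

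GhiAffx.41577.1.S1_s_at, which has no gene name here, had the largest change. Its signals were 51.9, 51.7 and 50.7 in Sicala 45 at 32 °C and 9.74, 107 and 27.5 in Sicot 53 at 32 °C, against 15947, 3930 and 3796 in Sicala 45 at 42 °C and 2909, 4482 and 5876 in Sicot 53 at 42 °C. All 6 arrays at 42 °C lay far above all 6 at 32 °C, and the lowest 42 °C value was 73.1 times the highest 32 °C value in Sicala 45 and 27.1 times in Sicot 53. The averaged log2 change was +6.45 ± 0.41 (SE), a fold of 87.2 on the log2(signal + 16) scale, and the ratio of the mean signals was 124. This probe set moved from percentiles between 14.4 and 50.2 of the array to percentiles between 94.5 and 99.0.

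GhiAffx.25696.1.S1_at started lower. It had signals of 12.8, 1.09 and 5.09 in Sicala 45 and 11.9, 38.8 and 3.24 in Sicot 53 at 32 °C, and of 6282, 619 and 537 in Sicala 45 and 1866, 478 and 2549 in Sicot 53 at 42 °C. The 42 °C arrays again lay above every 32 °C array, but within each cultivar they spread widely. The averaged log2 change was +5.67 ± 0.58 (SE). Because its 32 °C values are near the bottom of the scale, its fold depends on the pseudocount: with 1 in place of 16 it was +7.25 and exceeded GhiAffx.41577.1.S1_s_at (+6.97), and with 64 it was +4.20.

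Ghi.1479.1.S1_at came next in size of change. Its signals there were 53.6, 45.2 and 69.9 in Sicala 45 and 85.8, 87.1 and 58.1 in Sicot 53, and at 42 °C they were 4506, 645 and 918 in Sicala 45 and 632, 1104 and 1305 in Sicot 53. The 2 temperatures did not overlap in either cultivar, and the averaged log2 change was +3.86 ± 0.39 (SE), or 14.5-fold. GhiAffx.2754.1.A1_at went from 1.49, 11.4 and 25.6 in Sicala 45 and 7.07, 0.852 and 9.01 in Sicot 53 to 2645, 102 and 133 in Sicala 45 and 167, 97.7 and 357 in Sicot 53. One array, Sicala 45 at 42 °C replicate 1, held a value far above the other 5 at that temperature. Its averaged log2 change was +3.47 ± 0.65 (SE), and +2.75 without that array.

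Ghi.9821.1.A1_at, the next in order, had closely grouped arrays at 42 °C. Its 42 °C signals were 303, 234 and 245 in Sicala 45 and 253, 280 and 330 in Sicot 53, from 36.9, 39.5 and 17.5 and from 5.42, 131 and 15.1 at 32 °C. The 32 °C values of Sicot 53 were the uneven ones, with replicate 2 the highest, and the averaged log2 change was +2.64 ± 0.39 (SE). GhiAffx.25723.1.S1_at had 66.9, 47.3 and 78.9 in Sicala 45 and 80.7, 127 and 25.9 in Sicot 53 at 32 °C, and 1404, 252 and 285 and then 464, 541 and 416 at 42 °C. It did not overlap between temperatures, and its averaged log2 change was +2.58 ± 0.40 (SE), with Sicala 45 at 42 °C replicate 1 again the highest array.

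**Figure D2:**
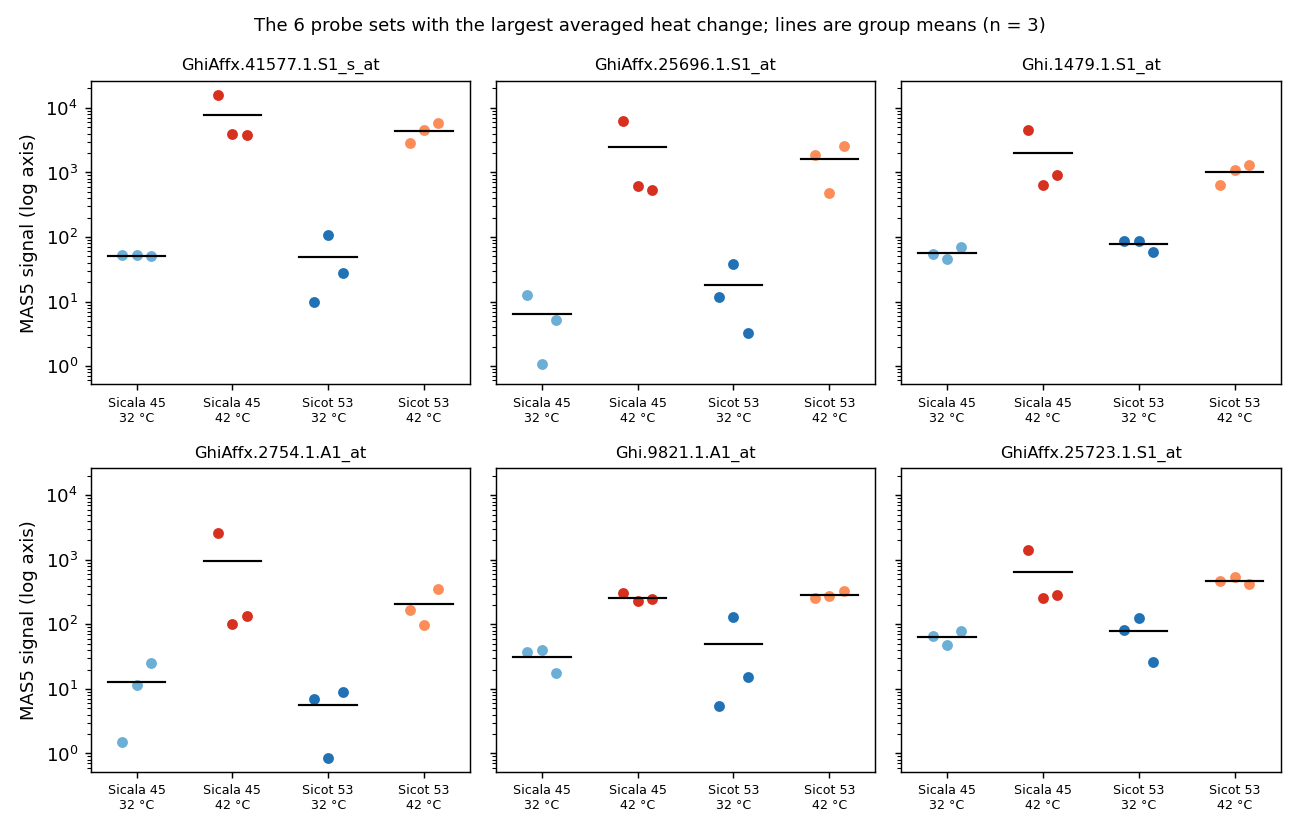
MAS5 signal on a log axis of the 6 probe sets with the largest averaged heat change, by group, with a point for each array and a line at the group mean (n = 3). In every panel the points at 42 °C lie above those at 32 °C of the same cultivar, and in 5 of the 6 panels 1 point of Sicala 45 at 42 °C stands well above the other 2.

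The remaining 33 probe sets had averaged log2 changes of +2.49 or less. Ghi.3494.2.A1_at (LOC107946138) led them, with signals of 37.6, 3.57 and 21.3 in Sicala 45 and 7.82, 71.6 and 2.79 in Sicot 53 at 32 °C against 240, 199 and 106 and then 125, 233 and 187 at 42 °C. Its groups did not overlap, and its averaged log2 change was +2.49 ± 0.40 (SE), or 5.61-fold. Ghi.904.1.A1_s_at had 44.6, 59.5 and 21.4 in Sicala 45 and 2.96, 52.9 and 25.5 in Sicot 53 at 32 °C, and 207, 214 and 120 and then 201, 271 and 289 at 42 °C, an averaged log2 change of +2.30 ± 0.32 (SE). All 6 of its 42 °C arrays exceeded all 6 at 32 °C. GhiAffx.44204.1.S1_at, with 36.4, 54.6, 36.1, 36.9, 73.9 and 66.9 on the 32 °C arrays and 353, 158, 294, 223, 378 and 192 on the 42 °C arrays (Sicala 45 first), had +2.05 ± 0.26 (SE), the smallest standard error among the 9 largest changes. It too had no overlap between temperatures.

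Values of 4 further probe sets, named after they were seen, show how the smaller changes vary. GhiAffx.2120.1.A1_at had the smallest standard error of the 39. Its signals were 59.9, 70.9 and 48.1 in Sicala 45 and 55.1, 62.5 and 51.0 in Sicot 53 at 32 °C, and 159, 197 and 147 and then 266, 215 and 228 at 42 °C. The averaged log2 change was +1.54 ± 0.18 (SE), or 2.91-fold, with all 6 arrays at 42 °C above all 6 at 32 °C and the lowest 2.08 times the highest in Sicala 45. Ghi.1460.1.S1_at had the smallest ratio, among the 39, of its lowest 42 °C to its highest 32 °C signal within a cultivar, 1.01 in Sicala 45: its signals were 115, 52.8 and 28.3 in Sicala 45 and 38.2, 46.2 and 101 in Sicot 53 at 32 °C, and 116, 146 and 392 and then 153, 255 and 105 at 42 °C. Within each cultivar its temperatures were almost touching, and across cultivars they overlapped.

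At the bottom of the scale, GraAffx.25453.1.A1_at and Gra.837.2.A1_s_at were near 2 on all 32 °C arrays. GraAffx.25453.1.A1_at had 2.83, 1.76 and 2.82 in Sicala 45 and 2.20, 1.85 and 2.02 in Sicot 53 at 32 °C, and 27.1, 42.1 and 16.4 and then 7.76, 23.4 and 57.9 at 42 °C. Gra.837.2.A1_s_at had 1.89, 2.77 and 3.25 and then 1.87, 2.13 and 2.41 at 32 °C, and 20.8, 34.5 and 72.7 and then 24.1, 36.8 and 17.4 at 42 °C. Both were higher on every 42 °C array, yet even there they lay below the median of all probe sets on each array. For such values the fold is set largely by the pseudocount, at +1.21 and +1.37 log2 units here.

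Taken over the whole set, the averaged log2 changes ran from +1.04 to +6.45 with a median of +1.59, and 18 of the 39 were below +1.5 while 10 were at least +2. The median over all 24029 probe sets was -0.02. The 197 probe sets that met the same heat criteria from a 32 °C signal of 100 or more had a median of +1.54, and 25.9% of them reached +2 against 25.6% of the dim ones. That closeness belongs to the pseudocount of 16: with 1 the medians were +2.36 for the dim set and +1.57 for the brighter set, and with 64 they were +1.01 and +1.45. The difference between the sets was not tested.

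How far the temperatures were apart also differed within the set. For each probe set the lowest 42 °C signal was divided by the highest 32 °C signal within a cultivar, and the smaller of the 2 cultivar ratios was taken. It was at least 5 for 4 probe sets, at least 2 for 13, and under 1.5 for 15, with a lowest value of 1.01. The limits used to choose them fell among similar probe sets. Ghi.10450.1.S1_s_at and Gra.2525.1.A1_at, with mean 32 °C signals of 91.3 and 89.7, were just inside the limit of 100, and Ghi.266.1.S1_x_at and GhiAffx.12181.1.A1_at, at 103 and 109, just outside it. On the limit of 1 log2 unit, GraAffx.30433.1.A1_at (+1.01 in Sicot 53) and Ghi.9198.3.A1_at (+1.02 in Sicot 53) were just inside, while Ghi.6895.1.S1_at and Ghi.5554.1.A1_at, with smaller changes of +0.99 and +0.98, were just outside.

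Single arrays shaped several of these values. Sicala 45 at 42 °C replicate 1 held the highest of the 6 values at 42 °C for 17 of the 39 probe sets (43.6%), beside 55.3% of the brighter heat-raised probe sets and 16.6% of all probe sets. Its ratio to the mean of the other 2 arrays of its group was 4.13 for GhiAffx.41577.1.S1_s_at, 10.9 for GhiAffx.25696.1.S1_at, 5.77 for Ghi.1479.1.S1_at, 22.5 for GhiAffx.2754.1.A1_at and 5.23 for GhiAffx.25723.1.S1_at. Without it, the averaged log2 changes of these 5 were +6.11, +5.10, +3.44, +2.75 and +2.19, and the 5 probe sets with the largest changes of all 39, Ghi.9821.1.A1_at among them, kept their order. At the other end, 14 of the 39 were lower on that array than the mean of the other 2. The most extreme case, named here after its values were seen, was GhiAffx.63256.1.S1_a_at, with 1.06, 1.41 and 2.69 in Sicala 45 and 1.04, 1.88 and 1.15 in Sicot 53 at 32 °C and 715, 3.78 and 9.99 and then 7.74, 52.6 and 108 at 42 °C. Its log2 change in Sicala 45 was +2.03 with and +0.36 without replicate 1, and 37 of the 39 kept at least +1 in Sicala 45 without that array. GhiAffx.2104.1.A1_at, the other exception, had +0.81.

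Control measures differed between the temperatures beside these probe sets. The mean log2 signal of the poly-A spikes, bacterial transcripts added before labelling, lay between 8.72 and 9.50 at 32 °C and between 9.35 and 9.93 at 42 °C. The 3'/5' ratio of the ubiquitin control ubq11, a measure of how complete the labelled RNA is, was 4.73 to 10.7 at 32 °C and 6.39 to 41.5 at 42 °C, and that of actin was 7.98 to 13.5 and 6.02 to 18.6. The arrays with ubq11 ratios above 20 were replicate 2 at 42 °C of both cultivars. On these the 39 deviated from their group means by a median of -0.23 (Sicala 45) and +0.08 (Sicot 53) on the log2 scale, beside -0.01 on each for all probe sets. Without both arrays the median averaged change of the 39 was +1.60 in place of +1.59. When arrays were scaled to their spikes, all 39 were still higher at 42 °C in both cultivars, with a median change of +1.22 where the median of all probe sets was -0.39.

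The change with heat was at least 1 log2 unit in both cultivars by the choice of the 39, so values for the 2 cultivars side by side are a description. The log2 changes had medians of +1.63 in Sicala 45 and +1.55 in Sicot 53. The change was larger in Sicala 45 for 27 and in Sicot 53 for 12, while over all 24029 probe sets the difference was toward Sicala 45 for 13931. Across the 39 probe sets the 2 sets of changes correlated at Pearson r = 0.94 and Spearman rho = 0.68. This is a description over probe sets, which share the same 12 arrays and were required to be raised in both cultivars. The plot of one cultivar's change against the other's shows the same, with the 4 largest changes alone at the upper right.

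**Figure D3:**
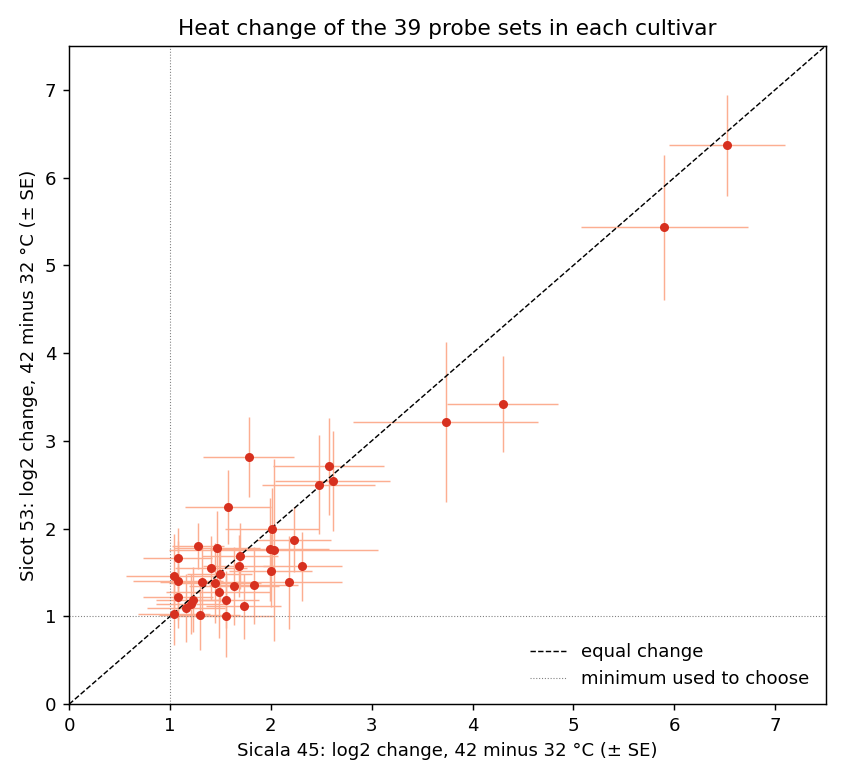
Log2 change from 32 to 42 °C in Sicot 53 (vertical axis) against that in Sicala 45 (horizontal axis), with standard errors of the model, for the 39 probe sets. Dotted lines mark the minimum of 1 used to choose them and the dashed line equal change. The 4 largest changes stand apart at the upper right.

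The test of a difference between the cultivars' heat changes was not used in choosing the probe sets, although the minimum asked of both cultivars limits it. None of the 39 passed it in limma (0 at an adjusted p under 0.05 and 0 at an unadjusted p under 0.05), and none of the 24029 did (0%, with 2.93% at an unadjusted p under 0.05). Ghi.904.1.A1_s_at had the largest difference toward Sicot 53 and the lowest p of the 39: its log2 change was +1.78 ± 0.45 (SE) in Sicala 45 and +2.82 ± 0.45 in Sicot 53, a difference of +1.04 (95% interval -0.34 to +2.42, limma adjusted p = 1 when rounded). Its single lowest value at 32 °C was that of Sicot 53 replicate 1, and without that array the difference was +0.54. The largest difference toward Sicala 45 was that of Ghi.1479.1.S1_at, at -0.88 (95% interval -2.55 to +0.80). The 95% intervals of the 39 differences reached a median of 1.30 log2 units to either side. Of the 39 intervals, 1 lay wholly within 1 log2 unit of 0, and the other 38 included a difference of 2-fold in at least 1 direction.

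Sicot 53 was also compared with Sicala 45 at each temperature, which asks whether these transcripts stood at different levels in unheated or in heated leaves of the cultivars. None of the 39 passed at 32 °C (limma, adjusted p under 0.05, where 0.0707% of all probe sets passed), and 1 of them had an unadjusted p under 0.05, or 2.56% beside 2.74% of all probe sets. At 42 °C none passed either (0.0707% of all probe sets), and again 1 of the 39 had an unadjusted p under 0.05 beside 3.9% of all probe sets. Averaged over temperatures, 0 of the 39 passed (0.137% of all probe sets), and 2 had an unadjusted p under 0.05, or 5.13% beside 3.31%. The median differences of the 39 were -0.03 log2 units at 32 °C, -0.09 at 42 °C and -0.03 averaged, beside +0.02, -0.06 and -0.02 for all probe sets.

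Ghi.5778.1.S1_s_at and Ghi.8805.1.S1_at, neither of which has a gene name here, had the lowest p-values in these comparisons and were both lower in Sicot 53. Ghi.5778.1.S1_s_at had signals of 50.2, 88.3 and 104 in Sicala 45 and 15.8, 37.3 and 52.6 in Sicot 53 at 32 °C, and of 276, 143 and 260 against 60.9, 156 and 142 at 42 °C. The cultivars overlapped in 1 pair of arrays at each temperature, and the averaged log2 difference was -0.91 ± 0.30 (SE, 95% interval -1.55 to -0.26, unadjusted p = 0.00933 in limma, adjusted p = 1 when rounded). Ghi.8805.1.S1_at had 94.2, 65.6 and 69.8 in Sicala 45 and 43.0, 50.5 and 49.1 in Sicot 53 at 32 °C, and 896, 485 and 140 against 148, 87.1 and 257 at 42 °C. At 32 °C all 3 arrays of Sicala 45 lay above all 3 of Sicot 53, at 42 °C the cultivars overlapped, and the difference at 42 °C was -1.32 ± 0.53 (SE, limma unadjusted p = 0.0273, adjusted p = 1 when rounded). It was -0.75 without Sicala 45 at 42 °C replicate 1, -2.02 without replicate 3 of that group, and -0.84 without the 2 arrays of high ubq11 ratio. Neither difference passed over the whole table. For 30 of the 39 the 95% interval of the averaged cultivar difference lay wholly within 1 log2 unit of 0. At the single temperatures this held for only 6 of the 39 at 32 °C and 8 at 42 °C. The other intervals included a difference of 2-fold in at least 1 direction. At each temperature the intervals reached a median of 0.92 log2 units to either side. The limit on the mean 32 °C signal, part of the rule, also restricts the levels compared at 32 °C. The rule also asks for a rise in both cultivars, so a transcript raised in only 1 of them could not be among the 39. This limits the cultivar differences that could be seen at 42 °C and averaged, and the 0 passing is partly a result of the choice.

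**Figure D4:**
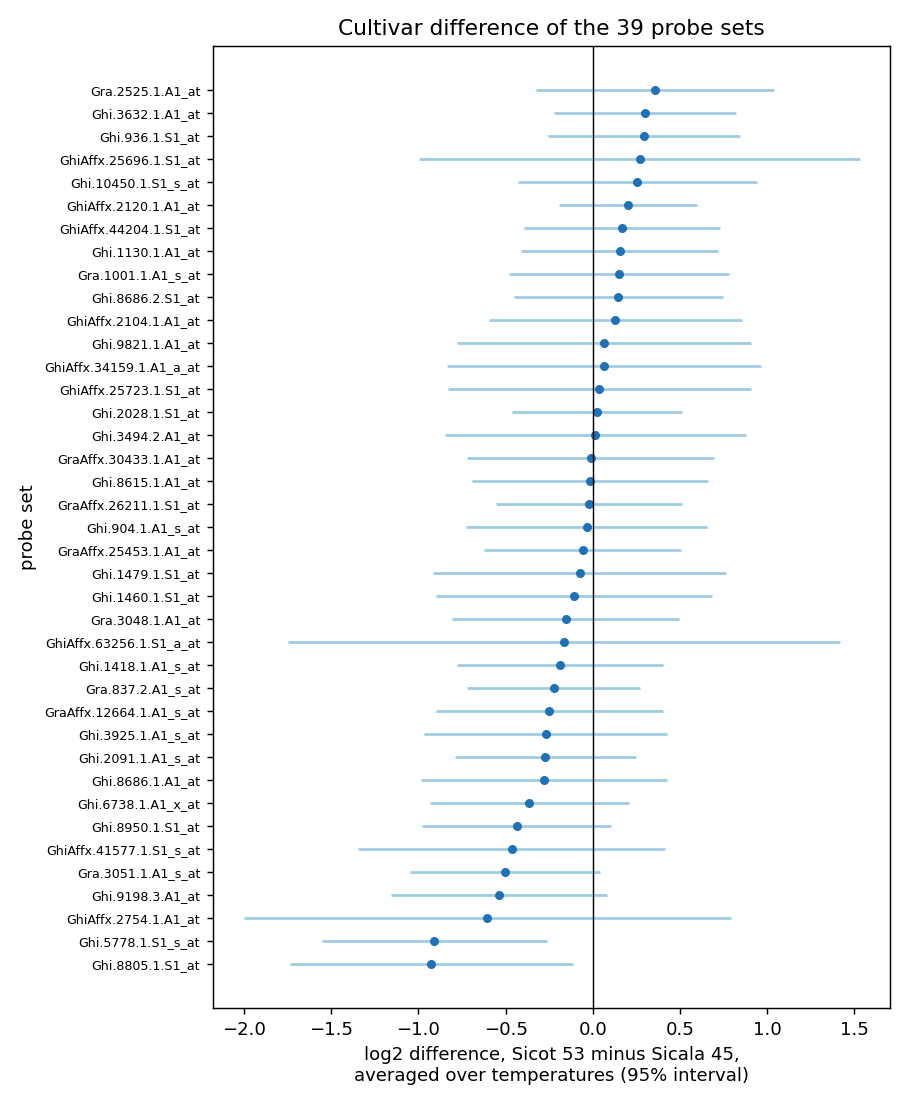
Log2 difference of Sicot 53 minus Sicala 45, averaged over both temperatures, for each of the 39 probe sets, with 95% intervals of the model. The intervals of 2 probe sets, Ghi.8805.1.S1_at and Ghi.5778.1.S1_s_at at the bottom, leave out 0.

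The names of the probe sets carry some information on what they target. A few names were left out by the rule, but the suffixes and prefixes counted here were not among its criteria. On this array a suffix _at marks probes designed for 1 transcript, and _s_at, _x_at or _a_at marks probes that can match several related transcripts. Of the 39, 14 (35.9%) carry one of the latter, beside 40.5% of all probe sets dim at 32 °C and 47% of the table, so for these 14 the signal of gene copies may not be separate. Whether the other probe sets separate the gene copies of this tetraploid was not tested. Names that begin with Gra come from Gossypium raimondii, a diploid relative of one parent of upland cotton. Such names make up 9 of the 39 (23.1%), 7.11% of the brighter heat-raised set, 46.4% of all dim probe sets and 29.4% of the table. The 9 Gra probe sets had averaged log2 changes of +1.91 or less, and all 8 of the largest changes were on probe sets whose names begin with Ghi.

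The 39 probe sets fall into 38 transcript clusters by the numbers in their names. Ghi.8686 was the cluster with 2 of them. Ghi.8686.1.A1_at had 5.19, 0.642 and 26.0 in Sicala 45 and 3.81, 7.66 and 1.96 in Sicot 53 at 32 °C against 145, 31.7 and 111 and then 57.8, 55.8 and 84.9 at 42 °C, an averaged fold of 4.01 on the log2(signal + 16) scale. Ghi.8686.2.S1_at had 11.7, 5.92 and 2.73 and then 22.1, 4.02 and 27.9 at 32 °C against 167, 67.3 and 75.7 and then 90.3, 72.2 and 77.2 at 42 °C, or 3.84-fold. The remaining probe set of the cluster, Ghi.8686.2.A1_s_at, had mean signals of 160 at 32 °C and 4330 at 42 °C and log2 changes of +4.66 in Sicala 45 and +4.15 in Sicot 53. In all, 7 of the 38 clusters hold more than 1 probe set. Of their 10 probe sets outside the 39, 6 had higher means at 42 °C in both cultivars, and 3 had no overlap of arrays in either. The shares of all probe sets that did so were not counted, so these counts only describe the 10. Others of the 10 went different ways. Ghi.9198.1.A1_x_at, in the cluster of Ghi.9198.3.A1_at, had log2 changes of -0.21 in Sicala 45 and -1.14 in Sicot 53. Gra.837.1.S1_at, in the cluster of Gra.837.2.A1_s_at, had +1.34 in Sicala 45 and -0.43 in Sicot 53.

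For 6 of the 39 (15.4%, beside 17.1% of all probe sets) the array also holds a probe set whose name differs only in A1 or S1 and in the suffix, and these pairs were looked at after values had been seen. The labels and files do not explain the letters. Should they mark the strand for which the probes were designed, the values of a pair would belong to opposite strands, which could not be settled here. Names with A1 make up 24 of the 39 (61.5%), 60.6% of all dim probe sets, 27.4% of the brighter heat-raised set and 44.3% of the table. Signals of different probe sets also differ through their probes, so only the changes within a probe set are compared below. The gene table gives both Ghi.3494.2.A1_at and Ghi.3494.2.S1_at the symbol LOC107946138. Ghi.3494.2.S1_at had signals of 2468, 375 and 598 in Sicala 45 and 1055, 6724 and 682 in Sicot 53 at 32 °C and of 41248, 21295 and 14016 and then 23962, 24653 and 29277 at 42 °C. Its log2 changes were +4.78 in Sicala 45 and +3.92 in Sicot 53, beside an averaged +2.49 for Ghi.3494.2.A1_at, and both probe sets were higher on every 42 °C array than on any 32 °C array.

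The other pairs were of more than 1 kind. Ghi.904.1.S1_s_at, the partner of Ghi.904.1.A1_s_at, had mean signals of 597 at 32 °C and 2853 at 42 °C and log2 changes of +2.19 in Sicala 45 and +2.32 in Sicot 53. Ghi.8686.2.A1_s_at, described above, is the partner of Ghi.8686.2.S1_at. These 2 partners and Ghi.3494.2.S1_at had no overlap of temperatures in either cultivar. The other 3 partners did overlap in at least 1 cultivar. Ghi.9198.3.S1_s_at had changes of +1.03 in Sicala 45 and +0.34 in Sicot 53, with overlap in Sicot 53. Ghi.8805.1.A1_at, at means of 3.53 and 8.04, had +0.53 and -0.06, with overlap in Sicot 53. GhiAffx.2754.1.S1_at went from a mean of 10.9 to 38.5, with changes of +0.80 and +0.73 and overlap in both cultivars. Whether signal of one transcript contributes to the value of both probe sets of a pair was not tested.

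**Figure D5:**
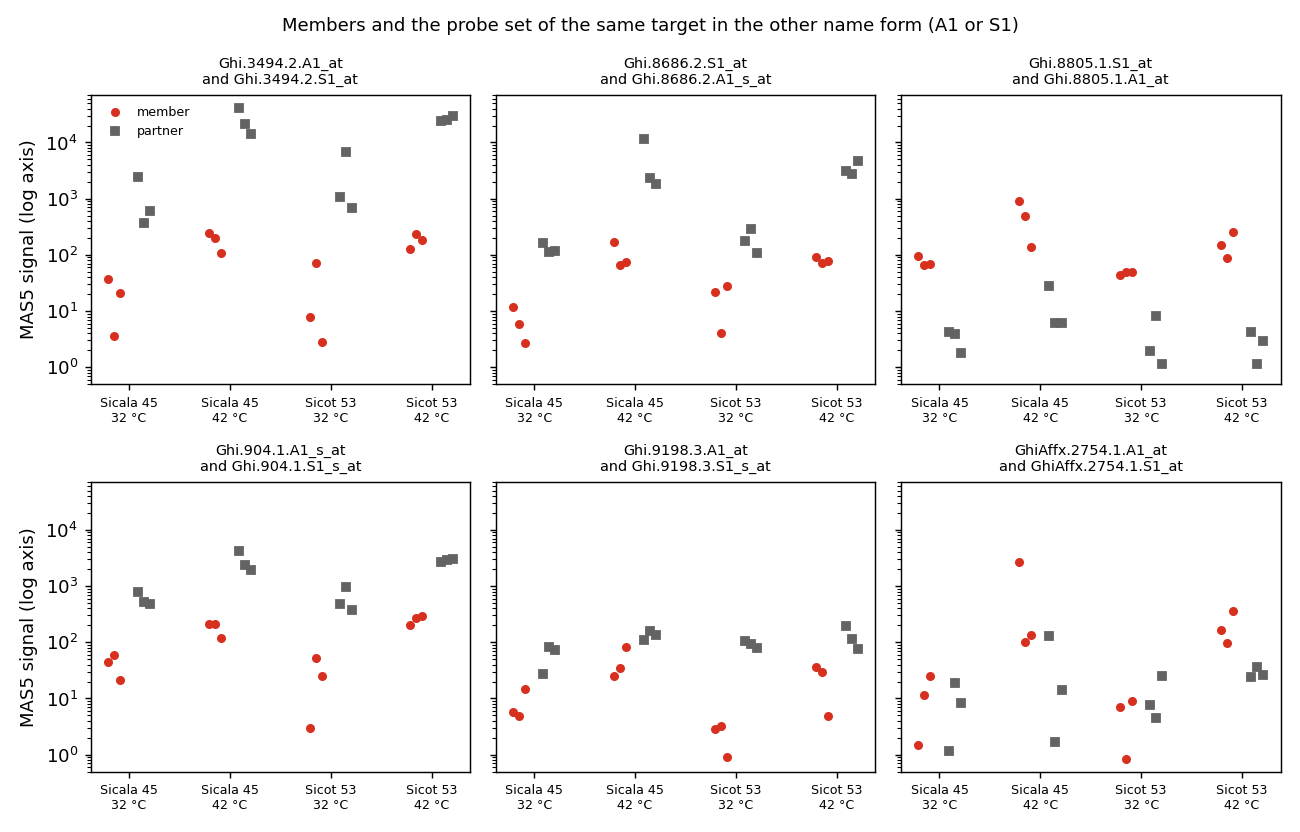
MAS5 signal on a log axis of the 6 probe sets that have a partner of the same target name (circles) and of those partners (squares), on each array by group. In the panels of Ghi.3494.2, Ghi.8686.2 and Ghi.904.1 both probe sets are higher at 42 °C in both cultivars, and in the other 3 panels the partner's temperatures overlap in at least 1 cultivar. Heights of the 2 probe sets of a panel are not comparable.

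The replicate spread of the 39 was wider than that of all probe sets in each group on the log2 scale. The median SD of log2(signal + 16) within groups was 0.397 in Sicala 45 and 0.465 in Sicot 53 at 32 °C, and 0.559 and 0.414 at 42 °C, beside 0.313, 0.361, 0.415 and 0.358 for all probe sets. In the same order it was 0.279, 0.398, 0.455 and 0.284 for the brighter heat-raised set, also wider than all probe sets in Sicot 53 at 32 °C and Sicala 45 at 42 °C. The spread of all probe sets dim at 32 °C was not computed. As a share of the mean signal, the median SD of the 39 was 39.8% and 57.3% at 32 °C and 42.6% and 33.6% at 42 °C, beside 29.6%, 33.5%, 38.9% and 33.8% for all probe sets, so in Sicot 53 at 42 °C it was no wider on that measure. Sicot 53 at 32 °C replicate 2 held the highest of the 6 values at 32 °C for 13 of the 39 (33.3%), beside 55.3% of the brighter heat-raised set and 25.3% of all probe sets. The deviations of the 39 from their group means had a median correlation of 0.06 over the 741 pairs of probe sets, yet their median deviation differed between arrays. On Sicala 45 at 42 °C replicate 1 it was +0.27 log2 units with 25 of the 39 above their group mean, beside a median of -0.11 for all probe sets. On replicate 2 of that group it was -0.23 with 11 above, beside -0.01. On Sicot 53 at 42 °C replicate 1 it was -0.11, again with 11 above, beside +0.02. The share of all probe sets above their group means was not counted.

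Of 10 gene lists written as name patterns (small heat shock proteins, larger chaperones, heat shock factors, stress transcription factors, galactinol and raffinose synthesis, reactive oxygen enzymes, late embryogenesis proteins, the unfolded protein response, leaf markers and fibre markers), 4 matched a named probe set and 0 held any of the 39. The lists with matches were the stress transcription factors (35 probe sets), the fibre markers (28), the reactive oxygen enzymes (8) and the leaf markers (1). The lists for chaperones and heat shock factors matched no named probe set, so they were not analysed here. Since none of the 39 has a gene name in the tables used, no list could have held one of them, and the 0 says nothing about what they are.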

How the data were processed

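RNA was extracted with a hot borate method and labelled with biotin, per the labels' protocols. The deposited values are intensity values, MAS5 signals on a linear scale (the submitters' processing notes name MAS5, with no version). A trimmed mean (percentiles 2 to 98) of 500 on every array shows a common scaling by the authors, and other steps are not given in the sources used here. No 2 arrays held identical values.

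The members and lists were chosen with earlier results of these data known. The rule left out 5 groups of probe sets by name, 1 of whose probe sets met the other criteria and is not reported here. All 24029 probe sets other than the 103 AFFX controls entered 1 limma 3.58.1 model of the 4 groups (R 4.3.3, log2(signal + 16), eBayes with an intensity trend, two-sided, Benjamini-Hochberg over the whole table, threshold 0.05), which was checked on simulated data. There was no filter on low values, because members are dim by rule, and 34 of the 39 would pass a filter on the dimmest 30%. Errors are standard errors of this model. Named probe sets were the 1 with a symbol, the 8 unnamed with the largest averaged change, those of lowest p per cultivar comparison, those next to each limit and the cluster with over 1 member. Gene symbols were matched by gene ID to a RefSeq table of Gossypium_hirsutum_v2.1 and 324 probe sets had a gene name there. Promoter motifs were not searched because no promoter sequence was used here. The alternatives were other scalings, pseudocounts of 1 and 64, filters, variance models, array weights, a replicate block and leaving out arrays. Figures used matplotlib 3.10.9 in Python 3.11.15.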

Additional observations from a re-analysis of the deposited data

How the results depend on the processing

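No member that was tested passed any cultivar comparison or the test of the difference between heat changes under any alternative run. The count was 0 in all 24 alternatives at 32 °C, 24 at 42 °C, 23 averaged and 23 for the difference between heat changes. The fit of only the groups compared was not possible for the last 2, which need all 4 groups. The filters on the dimmest 30% and 50% left 34 and 17 of the 39 to be tested, and the other alternatives tested all 39. With the replicate number as a block (replicate block) 0 members passed in each comparison. Same-numbered arrays of different groups had deviations correlating between -0.352 and 0.325, above 0.1 in 6 of 18 pairs. Between the cultivars at 32 °C the values were -0.0806, 0.32 and 0.272 for replicates 1, 2 and 3. At 42 °C they were 0.318, 0.285 and -0.0959. Whether the numbers pair the samples was not tested and is not settled by these values. Over the whole table the counts ran from 12 to 25 at 32 °C, 14 to 20 at 42 °C, 24 to 42 averaged and 0 to 1 for the difference. The log2 difference of Ghi.5778.1.S1_s_at averaged over temperatures ran from -1.17 to -0.61 (limma adjusted p 0.291 to 1).

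The number of probe sets that meet the criteria depended on the scale: 15 when arrays were scaled to the spikes, 72 with a pseudocount of 1 and 14 with 64, against 39, and 53 with median centring, 41 with quantile normalization and 52 without the 2 arrays of high ubq11 ratio. Leaving out single arrays gave 38 to 72, with 72 without Sicot 53 at 32 °C replicate 2, the array with the highest 32 °C values in many members. Between 33 and 39 of the 39 met the criteria without a single array, and all 39 were higher at 42 °C in both cultivars under every alternative that changed values or arrays. The separation of arrays asked by the rule fixes that direction when arrays are left out or the pseudocount changes. Only the other scalings could have reversed it. Of 324 alternative values for the averaged change of the named members and the median, 304 moved by less than the spread between replicates and 20 moved further. None changed sign, which again only the other scalings could have done. All 20 were under another pseudocount. Array number and signals near background limit precision.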

Other observations

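With the criteria turned round (a log2 change of -1 or below in both cultivars, all 3 arrays at 42 °C below all 3 at 32 °C), 137 probe sets qualified, fewer than the 39 dim and 197 brighter ones that were higher at 42 °C. Of the 137, 36 had a mean signal below 100 at 42 °C, beside the 39 with a mean below 100 at 32 °C, a number that ran from 14 to 72 under other settings. Probe sets with a mean below 100 numbered 11825 at 32 °C and 12015 at 42 °C. These counts were made after the data had been seen and were not tested.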
